A study of Mus musculus with 8 samples.

Results

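The 9 genes described here, which carry, transfer, export or store lipid, are Fabp3, Fabp4, Fabp5, Pla2g7, Pltp, Abca1, Abcg1, Soat1 and Plin2, and they were followed in macrophages of the injured mouse retina. They were taken by gene symbol, with earlier results of these data known, and the tables hold all 9 among 22558 symbols. RNA was sequenced in 8 libraries, 4 of microglia (libraries 1 to 4), the macrophages that reside in the retina, and 4 of infiltrating macrophages (libraries 5 to 8), which enter the tissue from outside. Every library came from mice of the genotype Msi1-CreERT2/+; R26R-DTA/+ at about 5 months of age, on a mixed C57BL/6 and 129 background, with the retina taken on day 7 after injury. CreERT2 is a Cre recombinase that tamoxifen activates, here driven from the Msi1 (Musashi1) gene, and R26R-DTA makes diphtheria toxin A in cells where Cre has acted. Both populations therefore come from injured tissue, and no uninjured retina is among the 8 libraries. How the populations were separated, and whether libraries are from separate animals or pools, is not given in the sources used here, so each p-value reflects no more than the spread among the 8 libraries, which may be technical.

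Cytosolic fatty acid binding proteins ferry fatty acids between membranes, lipid droplets and the nucleus, and each tissue uses its own set of them. Macrophages that engulf membrane-rich debris take in much cholesterol. They esterify part of it with Soat1 and keep the esters in droplets coated by Plin2, and they export the rest to lipoproteins through the transporters Abca1 and Abcg1, whose genes the oxysterol-sensing LXR receptors switch on. Outside the cell, Pltp moves phospholipids between lipoproteins, and Pla2g7 hydrolyses platelet-activating factor and oxidized phospholipids on lipoprotein particles.

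Promoters are shown for the genes whose libraries separated the populations most clearly in each direction, Fabp3 and Pltp, and for those that held a searched motif, Abca1 and Plin2. Each sequence holds the 250 bases before the transcription start, 5′ to 3′ on the gene's strand, from RefSeq on build GRCm38.p6. They lie at chr4:130308488-130308737 (Fabp3, plus strand), chr2:164857709-164857958 (Pltp, minus), chr4:53159896-53160145 (Abca1, minus) and chr4:86670060-86670309 (Plin2, minus). Capitals mark motif matches.
Fabp3: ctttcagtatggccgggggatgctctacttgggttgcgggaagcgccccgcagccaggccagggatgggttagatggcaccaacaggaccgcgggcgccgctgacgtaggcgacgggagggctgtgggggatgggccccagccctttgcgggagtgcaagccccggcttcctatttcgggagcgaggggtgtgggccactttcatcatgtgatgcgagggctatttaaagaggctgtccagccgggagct
Pltp: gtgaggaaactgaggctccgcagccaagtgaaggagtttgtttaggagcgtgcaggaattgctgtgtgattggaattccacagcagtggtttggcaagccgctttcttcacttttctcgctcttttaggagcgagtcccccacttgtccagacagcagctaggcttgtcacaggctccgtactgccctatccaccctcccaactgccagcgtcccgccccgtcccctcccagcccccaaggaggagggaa
Abca1: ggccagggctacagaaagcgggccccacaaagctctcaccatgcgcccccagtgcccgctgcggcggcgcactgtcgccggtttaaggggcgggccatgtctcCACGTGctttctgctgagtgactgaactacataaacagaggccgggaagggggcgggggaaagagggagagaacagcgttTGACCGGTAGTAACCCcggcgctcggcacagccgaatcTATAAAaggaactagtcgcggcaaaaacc
Plin2: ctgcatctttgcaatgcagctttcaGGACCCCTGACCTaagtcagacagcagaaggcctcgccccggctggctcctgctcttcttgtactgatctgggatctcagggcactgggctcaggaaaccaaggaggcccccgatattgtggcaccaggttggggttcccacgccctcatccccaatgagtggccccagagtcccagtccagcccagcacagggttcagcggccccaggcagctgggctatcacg

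The RefSeq table held a promoter for 6 of the 9 genes, all but Fabp4, Fabp5 and Abcg1. Motifs were sought on both strands in these 6 and in 32851 windows of the same length. The E box CACGTG, which basic helix-loop-helix factors bind, stood in 6.02% of all windows and in Abca1, from position -147 to -142 relative to the start, which is 1. Abca1 also held TATAAA (12.4% of all windows) from position -29 to -24. The LXR repeat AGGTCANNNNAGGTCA with up to 2 mismatches was in 2.57% of windows and in none of the 6. With up to 3 mismatches, a limit set after the first search, it was in 18.5% of windows and in Abca1, on the opposite strand from position -67 to -52. The PPAR repeat AGGTCANAGGTCA with up to 2 mismatches was in 3.24% of windows and in Plin2, on the opposite strand from position -225 to -213, and the sterol element TCACCCCAC with up to 1 mismatch was in 8.47% and in none of the 6. The Fabp3, Pla2g7, Pltp and Soat1 windows held no searched motif. These matches describe letters, not bound sites.

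The libraries differed in more than the population they came from. Genes at 1 FPKM (fragments scaled by transcript length and library depth) or more numbered 5995 in microglia 2 and between 8172 and 10287 in the other 7 libraries. Depth, estimated from the lowest values, was about 11660000 fragments in microglia 1 and 18960000 to 24550000 in the others. FPKM over all genes summed to 207154 in macrophage 7 and 512101 in macrophage 6, the lowest and highest sums of any library. The FPKM values below are not corrected for this difference in scale. Transcripts of 4 Y-linked genes summed to between 11.7 and 25.8 FPKM in microglia 1 to 3, to 0.0533 in microglia 4 and to at most 1.97 in macrophages. Xist, an RNA of female cells, was at most 0.000779 FPKM in microglia 1 to 3, 4.78 in microglia 4 and 4.84 to 7.94 in macrophages. By these transcripts sex was nearly aligned with population, so a difference between populations is hard to separate from one of sex. A fit that includes the Y-linked sum therefore leans on microglia 4 for the comparison, and its values stand beside the results. Of 10 microglial markers, all were above the expression filter, and their summed FPKM was 2494 to 3489 in microglia and 720 to 2442 in macrophages. Of these markers, 6 were higher in every microglial library than in any macrophage library, among them Sall1 (8.61 to 26.8 against 0 to 0.0352 FPKM) and P2ry12 (86.8 to 152 against 4.54 to 29.0), and 4 overlapped, among them Tmem119 (178.6 to 339.3 against 106 to 365). Ccr2, a receptor of recruited monocytes, was at most 1.53 in microglia and 2.64 to 99.4 in macrophages. Erythroid markers summed to 0.683 to 2437 FPKM in microglia and 0.693 to 23.7 in macrophages, and pericyte markers to 10.7 to 16.5 and 5.11 to 15.6. Retinal pigment epithelium markers summed to 0.716 to 38.1 and 0.484 to 3.99. The 38.1, in microglia 2, was almost all Mlana (38.0), and 6 of the 8 markers were listed at 0 there.

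Of the 9 genes, 8 had at least 1 FPKM in at least 4 libraries and were tested with limma on log2(FPKM + 1). Fabp3 was lower in infiltrating macrophages, Pltp and Pla2g7 were higher, and 5 did not pass the test. All 3 calls are at an adjusted p below 0.05, and the same 3 genes had an unadjusted p below 0.05. Over all 9352 genes tested, 219 or 2.34% were called, 154 or 1.65% higher and 65 or 0.695% lower. The 9 genes were chosen with earlier results of these data known, so this share is no test of them as a set. With Y-linked expression in the fit none of the 8 was called, and 25 genes were called over the whole table. The median log2 fold change of the 8 genes was 0.22, beside 0.37 for all tested genes. The latter moved to 0.475, 0.27, 0.16 and -0.03 under equal-sum, upper-quartile, median-of-ratios and quantile scaling, and the share of calls that were higher moved from 70.3% to 72.5%, 59.5%, 55.4% and 53.4%. Libraries of the populations did not overlap for 2 of the 8 genes, Fabp3 and Pltp, and for 7.63% of all tested genes.

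**Figure D1:**
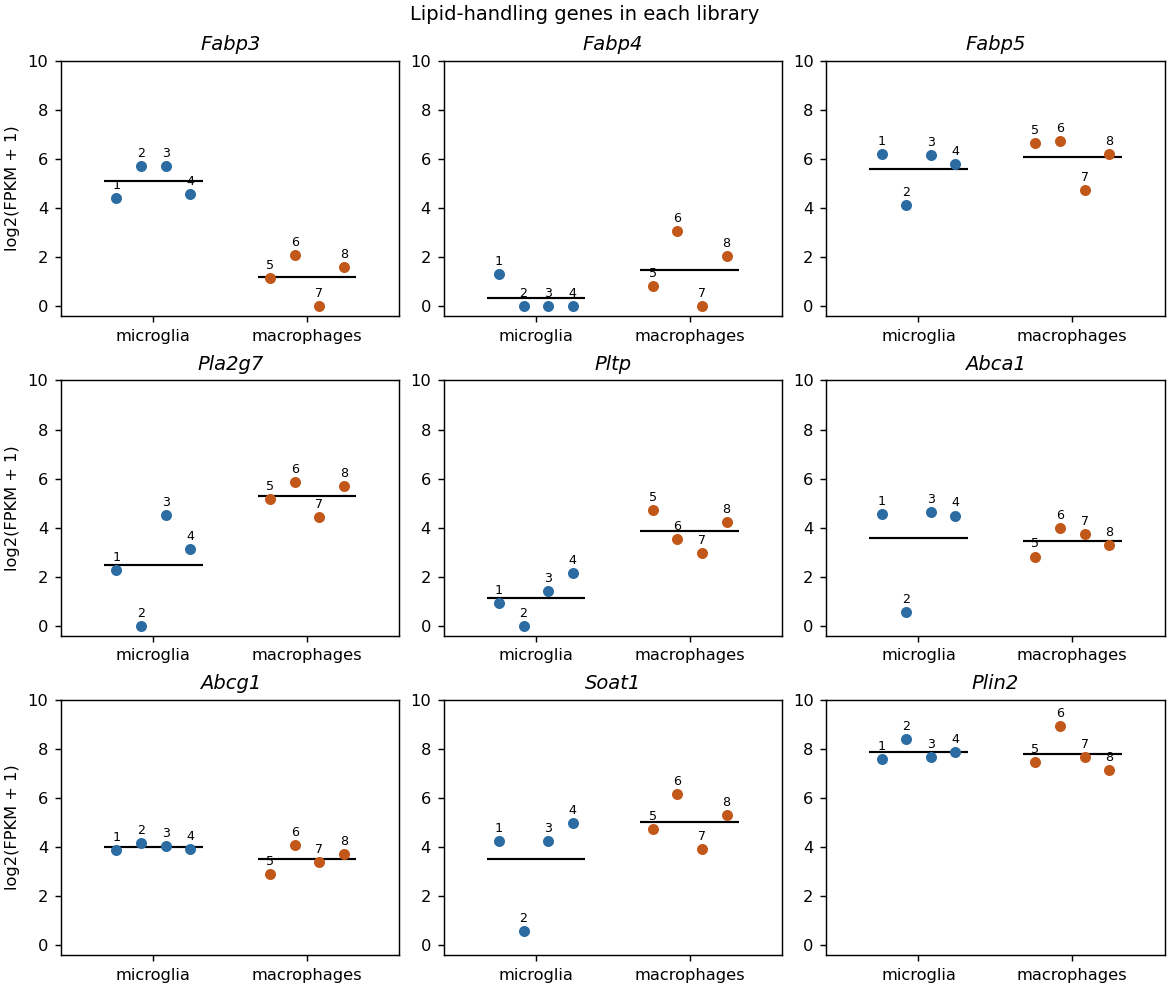
Expression of the 9 genes as log2(FPKM + 1) in each library, with microglia (1 to 4) in blue, infiltrating macrophages (5 to 8) in orange and the mean of each population as a line. The 4 microglial points lie above all macrophage points for Fabp3 and below them for Pltp, and microglia 2 lies far below the other microglia for Abca1 and Soat1.

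Fabp3, the heart-type fatty acid binding protein, fell from a prominent transcript in microglia to a scarce one in macrophages. It stood at 20.5, 51.4, 52.2 and 22.7 FPKM in microglia 1 to 4 and at 1.25, 3.23, 0 and 2.0 FPKM in macrophages 5 to 8. Every microglial library was thus above every macrophage library, and macrophage 7 is listed at 0. In bulk RNA like this, fewer cells that express a gene and less RNA per cell cannot be told apart. The means were 36.7 ± 17.5 FPKM in microglia and 1.62 ± 1.35 in macrophages (SD, n = 4 each), 22.7-fold apart. On the log2(FPKM + 1) scale the difference was -3.90 ± 0.68 (SE; adjusted p = 0.00118, limma), where a low value is understated by the pseudocount of 1. Among the tested genes of a library, Fabp3 ranked between percentiles 81.0 and 90.5 in microglia and from 0.93 to 21.8 in macrophages. It was called in each of the 8 fits that left out 1 library (-4.19 to -3.50, adjusted p = 0.00125 to 0.00549). With Y-linked expression in the fit the difference was as large, -3.93, but the adjusted p was 0.133.

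The gene lies on mouse chromosome 4 (mm9 chr4:129986022-129992707, plus strand) and has 4 exons. An exact permutation test of the 8 libraries gave p = 0.0286 (two-sided), the smallest that 70 arrangements allow. In microglia 4, the microglial library with Y-linked RNA as low as in macrophages, Fabp3 stood at 22.7 FPKM against at most 3.23 in macrophages. A single library cannot separate sex from population. Markers of Mueller glia and astrocytes, which could be carried along with retinal cells, also summed higher in microglia, to 53.5 to 74.9 FPKM against 9.07 to 33.2. The 2 of these 9 markers that passed the filter, Glul and Slc1a3, were both higher in every microglial library. Slc1a3 reached 1 FPKM in all microglial libraries and, of the macrophages, in macrophage 7 alone. The filter thus favours markers that are high in microglia. Glul, glutamine synthetase, was at 44.4 to 67.6 FPKM in microglia and 7.39 to 18.6 in macrophages, and Slc1a3, a glutamate transporter, at 4.12 to 18.2 and 0 to 1.2. The other 7 overlapped between the populations. Of these, Rlbp1 was listed at 0 in 3 microglial libraries and was at 0.12 FPKM in microglia 4. It stood at 1.77, 4.21, 0.209 and 0.0673 FPKM in macrophages 5 to 8. Photoreceptor markers summed to 22.4 to 134 FPKM in microglia and 3.13 to 51.8 in macrophages. The part of Mueller glia, astrocytes and photoreceptors in the Fabp3 difference was not tested.

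Fabp5, the epidermal-type fatty acid binding protein, was abundant in both populations. It stood at 72.9, 16.6, 71.8 and 54.4 FPKM in microglia 1 to 4 and at 99.6, 106, 25.9 and 73.1 FPKM in macrophages 5 to 8. These values overlapped, with microglia 2 and macrophage 7 the low library of each. The difference of 0.51 ± 0.58 (SE, 95% interval -0.70 to 1.71; adjusted p = 0.734) did not pass, and without microglia 2 it was 0.03. Fabp5 is on chromosome 3 (chr3:10012606-10016610, plus strand). Processed copies of it exist elsewhere in the mouse genome, so its level depends on how shared reads were divided.

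Fabp4, the adipocyte-type protein that is also made by capillary endothelium and some macrophages, was low and uneven between libraries. Its FPKM was 1.52 in microglia 1, listed as 0 in microglia 2, 3 and 4, and 0.80, 7.37, 0 and 3.14 in macrophages 5 to 8. With 3 libraries at 1 FPKM or more it was below the filter and has no test over all genes, and an exact permutation test gave p = 0.257. At the estimated depths, 1 fragment on its transcript corresponds to 0.0836 to 0.176 FPKM. Of 10 endothelial markers 2 passed the filter, with sums of 1.97 to 3.92 FPKM in microglia and 4.67 to 9.82 in macrophages. The 2 were Kdr and Pecam1, and both were highest in macrophage 6, the library with the most Fabp4, at 4.11 and 5.31 FPKM. In the same library 5 of the 10 endothelial markers were listed at 0 (Esam, Emcn, Tek, Tie1 and Cldn5), the most of any macrophage library. Cldn5 was listed at 0 in every library. Of 6 adipocyte markers none passed the filter, and Adipoq and Cfd were listed at 0 in all 8. The part of these cells in the Fabp4 values was not tested.

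The sum of the 3 carriers overlapped between the populations, whereas the share of Fabp3 in it did not. Fabp3, Fabp4 and Fabp5 together came to 94.9, 67.9, 124 and 77.0 FPKM in microglia 1 to 4 and to 102, 117, 25.9 and 78.2 FPKM in macrophages 5 to 8. Fabp3 gave 21.6%, 75.6%, 42.1% and 29.5% of that sum in the microglial libraries and 1.23%, 2.77%, 0% and 2.56% in the macrophage libraries. Fabp5 made up at least 90.9% of it in every macrophage library. These shares were computed after the gene values were seen and follow from them. FPKM is scaled by transcript length, so the genes can be set side by side, but only roughly. The Fabp5 level, and with it each share, depends on how shared reads were divided.

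**Figure D2:**
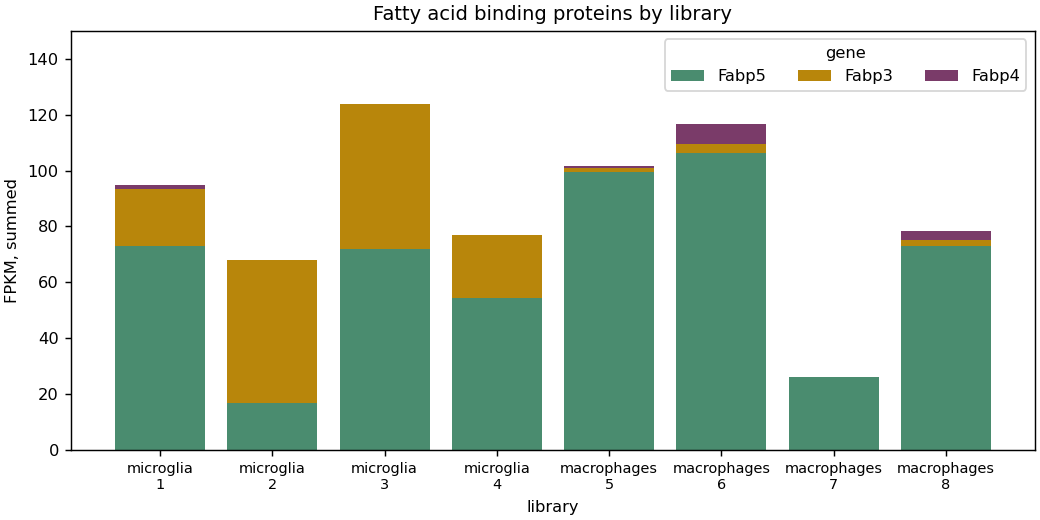
Stacked FPKM of Fabp5, Fabp3 and Fabp4 in each library, with bar height as their sum. Fabp3 is a visible part of each microglial bar (21.6% to 75.6%) and at most 2.77% of each macrophage bar, and macrophage 7 has the lowest sum, 25.9 FPKM.

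Pltp, the phospholipid transfer protein, was higher in macrophages. It stood at 0.89, 0, 1.68 and 3.47 FPKM in microglia 1 to 4 and at 25.0, 10.7, 6.92 and 17.6 FPKM in macrophages 5 to 8. All macrophage libraries were above all microglial ones, with macrophage 7 the lowest and microglia 4 the highest of their groups. Microglia 4 is the microglial library with Y-linked RNA as low as in macrophages. Means were 15.1 ± 7.99 FPKM against 1.51 ± 1.47 (SD, n = 4 each), 9.98-fold apart. The difference was 2.74 ± 0.71 (SE; adjusted p = 0.0389, limma), and an exact permutation test gave p = 0.0286, the smallest possible. The call was lost without microglia 1 (2.67, adjusted p = 0.0891) or 3 (2.84, 0.0516), or without macrophage 5 (2.46, 0.195), 6 (2.84, 0.0831) or 8 (2.62, 0.159). Including Y-linked expression gave 1.79 (adjusted p = 1).

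Pla2g7, the platelet-activating factor hydrolase carried on lipoproteins, was also higher in macrophages, with an overlap in FPKM at 1 library. It stood at 3.83, 0, 21.9 and 7.79 FPKM in microglia 1 to 4 and at 34.8, 57.4, 20.3 and 51.6 FPKM in macrophages 5 to 8. Microglia 3 was above macrophage 7 in FPKM, and microglia 2 is listed at 0, where 1 fragment would be 0.0209 to 0.0441 FPKM. By percentile among the tested genes of a library there was no overlap, with microglia at most at 80.0 (microglia 3) and macrophages at 85.7 to 93.0. Mean FPKM was 41.0 ± 16.8 against 8.37 ± 9.54 in microglia (SD, n = 4 each), 4.90-fold apart. The difference was 2.81 ± 0.76 (SE; adjusted p = 0.0484, limma), close to the threshold, with p = 0.0571 in an exact permutation test. It stayed called without microglia 3 (3.49, adjusted p = 0.00807) or 4 (3.03, 0.0488) and was lost without microglia 1 (2.74, 0.0886) or 2 (1.98, 0.0929) and without macrophage 5 (2.85, 0.0933), 6 (2.62, 0.162), 7 (3.10, 0.0552) or 8 (2.67, 0.15). It was also lost under upper-quartile (adjusted p = 0.0674) and median-of-ratios scaling (0.0709). Including Y-linked expression gave 2.29 (adjusted p = 1).

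Pltp lies on chromosome 2 (chr2:164665018-164683208, minus strand) and Pla2g7 on chromosome 17 (chr17:43705400-43749150, plus strand). Markers of blood-derived cells also reached higher sums in macrophages. The 10 monocyte markers summed to 231 to 301 FPKM in microglia and 588 to 2510 in macrophages, and 9 of them passed the filter. Neutrophil markers (9 in the tables, 4 past the filter) summed to 0.67 to 1.46 FPKM in microglia and 42.4 to 242 in macrophages. S100a8 and S100a9 were listed at 0 in all microglia and Ngp at 0 in all libraries. Camp (0.628 FPKM in microglia 1) and Elane (1.14 in microglia 3) were listed at 0 in all macrophages. Within macrophages the neutrophil sum was lowest in macrophage 5, where Pltp was highest. Dendritic cell markers (9, of which 3 passed) summed to 2.58 to 34.9 FPKM and 16.7 to 172. Microglia 3, the highest for Pla2g7 in its group, also had the highest sum of dendritic cell markers among microglia, 34.9 FPKM, most of it Batf3 (23.2) and Cd209a (8.92), while Ccr7 and Ccl22 were listed at 0 there. A match or mismatch in a single library shows no link, and the part of these cells in either difference was not tested.

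**Figure D3:**
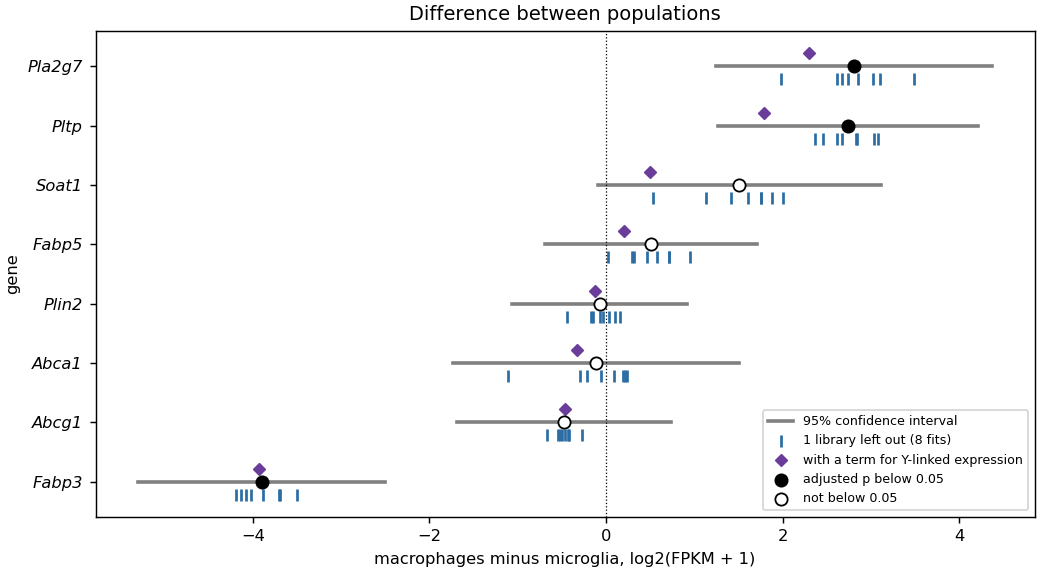
Difference between populations for the 8 tested genes in log2(FPKM + 1), positive where macrophages are higher, as the estimate (filled where the adjusted p is below 0.05) with its 95% interval. Ticks show fits without 1 library and diamonds the fit that includes Y-linked expression: Fabp3 stays between -4.19 and -3.50 over the ticks, and Abca1 moves to -1.12 without microglia 2.

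Abca1, which loads cholesterol and phospholipid onto lipid-poor apolipoproteins, was high in 3 microglial libraries and nearly missing from the fourth. It stood at 22.8, 0.489, 23.95 and 21.5 FPKM in microglia 1 to 4 and at 6.07, 14.8, 12.3 and 8.68 FPKM in macrophages 5 to 8. Microglia 1, 3 and 4 were each above all macrophages, and microglia 2 was below them. The difference of -0.12 ± 0.78 (SE, 95% interval -1.74 to 1.5; adjusted p = 0.965) did not pass. Without microglia 2 it was -1.12 (adjusted p = 0.436), and with libraries weighted by their quality it was -1.27 (adjusted p = 0.0873). Its sign turned under equal-sum scaling, to 0.02, and with a pseudocount of 0.1, to 0.13. Abca1 spans 50 exons on chromosome 4 (chr4:53043661-53172767, minus strand), with a transcript of 10262 bases, so 1 fragment is worth only 0.00403 to 0.00848 FPKM.

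Abcg1, which passes cholesterol to mature high-density lipoprotein, varied less. It stood at 13.5, 16.8, 15.4 and 14.1 FPKM in microglia 1 to 4 and at 6.38, 16.0, 9.36 and 12.1 FPKM in macrophages 5 to 8. Of the macrophages, macrophage 6 alone reached into the microglial range. The difference of -0.48 ± 0.59 (SE, 95% interval -1.69 to 0.73; adjusted p = 0.752) did not pass. The coefficient of variation was 9.81% over microglia, the lowest of the 9 genes in that population, and 37.4% over macrophages. Abcg1 is on chromosome 17 (chr17:31194639-31254926, plus strand). The ratio of Abca1 to Abcg1 in FPKM, formed after the values were seen, was 1.68, 0.0291, 1.56 and 1.53 in microglia and 0.952, 0.923, 1.32 and 0.719 in macrophages.

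Soat1, the enzyme that esterifies cholesterol for storage, followed the low level of Abca1 in microglia 2 but not its order elsewhere. It stood at 18, 0.471, 17.8 and 30.7 FPKM in microglia 1 to 4 and at 25.5, 69.9, 13.9 and 38.1 FPKM in macrophages 5 to 8. In FPKM, macrophage 6 was the highest library, while macrophage 7 was below all microglia but microglia 2. By percentile among the tested genes of a library, macrophage 8 was the highest (90.2, with macrophage 6 at 88.0). Macrophage 7, at 81.4, was then above microglia 1 (79.0) and 3 (76.5) and below microglia 4 (86.8). The difference of 1.51 ± 0.78 (SE, 95% interval -0.09 to 3.11; adjusted p = 0.368) did not pass, and without microglia 2 it was 0.53 (adjusted p = 0.786). Soat1 has 16 exons on chromosome 1 (chr1:158358239-158404459, minus strand).

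Plin2, the coat protein of lipid droplets, was the highest of the 9 genes in all 8 libraries. It stood at 191, 339, 201 and 234 FPKM in microglia 1 to 4 and at 178, 490, 205 and 139 FPKM in macrophages 5 to 8. Both sets overlapped throughout, with macrophage 6 the highest library and macrophage 8 the lowest. It ranked between percentiles 97.1 and 98.8 of tested genes in each library. The difference of -0.07 ± 0.48 (SE, 95% interval -1.06 to 0.92; adjusted p = 0.965) did not pass, and its sign turned under equal-sum (0.09) and quantile scaling (0.16). Plin2 is on chromosome 4 (chr4:86302469-86315963, minus strand).

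In order of mean FPKM, the microglial levels ran from Plin2 (241 ± 67.9) over Fabp5 (53.9 ± 26.3), Fabp3 (36.7 ± 17.5), Abca1 (17.2 ± 11.2), Soat1 (16.8 ± 12.4), Abcg1 (15.0 ± 1.47), Pla2g7 (8.37 ± 9.54) and Pltp (1.51 ± 1.47) to Fabp4 (0.379 ± 0.758; SD, n = 4). In macrophages they ran from Plin2 (253 ± 160) over Fabp5 (76.2 ± 36.5), Pla2g7 (41.0 ± 16.8), Soat1 (36.9 ± 24.1), Pltp (15.1 ± 7.99), Abcg1 (11.0 ± 4.10) and Abca1 (10.5 ± 3.85) to Fabp4 (2.83 ± 3.31) and Fabp3 (1.62 ± 1.35). Plin2 was above Fabp5 in every library. Fabp3 thus went from the third place to the last. Between neighbours in the microglial order, the gap exceeded the larger SD of the pair only for Plin2 and Fabp5 and for Fabp3 and Abca1. In macrophages it did so only for Plin2 and Fabp5 and for Abca1 and Fabp4. The genes were measured in the same libraries, which this use of the SD ignores. Fabp5 was above Pla2g7, and Soat1 above Pltp, in every macrophage library, while the other macrophage neighbours within their spread changed order between libraries. In microglia 1, Fabp3 was below Abca1 (20.5 against 22.8 FPKM).

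Microglia 2 set part of this picture. Of the 7 genes at 1 FPKM or more in microglia 1, 3 and 4, 3 stood below 0.1 of their median there in microglia 2: Abca1, Soat1 and Pla2g7. Of the 6118 tested genes that met the same condition, 26.3% did so. Fabp3, Abcg1 and Plin2 were not low in that library, at 51.4, 16.8 and 339 FPKM. Without microglia 2 and 3 the calls were Fabp3 (-3.29, adjusted p = 0.00653) and Pla2g7 (2.59, adjusted p = 0.0343), with Pltp at 2.32 (adjusted p = 0.0967).

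Genes whose profile over the 8 libraries was nearest to each called gene were sought among 5733 tested genes whose higher population averaged 5 FPKM or more. Likeness was the mean absolute difference in log2(FPKM + 1), each gene centred on its own mean. For Fabp3 the nearest was Cryba4, a crystallin, at 0.38 (60.7 ± 39.6 FPKM in microglia, 2.66 ± 1.31 in macrophages), then Ctla2a, a cysteine protease inhibitor, at 0.42 (38.5 ± 25.6 and 0.902 ± 0.436; SD, n = 4 each). The median over all genes compared was 2.14. For Pla2g7 they were Tnfsf13, the cytokine APRIL, at 0.34 (4.37 ± 4.60 and 18.9 ± 9.98 FPKM) and Tagap, a GTPase-activating protein, at 0.405 (5.63 ± 4.13 and 28.8 ± 9.23), with a median of 1.47. For Pltp they were Bub1b, a mitotic checkpoint kinase, at 0.36 (0.701 ± 1.10 and 8.27 ± 3.33 FPKM) and Filip1l at 0.37 (0.488 ± 0.648 and 9.88 ± 4.51), with a median of 1.31. Among the 8 tested genes themselves the nearest pairs were Abcg1 and Plin2 (0.41) and Pla2g7 and Pltp (0.695).

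Other lipid genes, in 9 lists of 167 genes, were mostly not called. Of 112 tested, 1 was called higher and 0 lower (0.893%, beside 2.34% of all tested genes), and 23 had an unadjusted p below 0.05 (20.5%, beside 15.0% of all). Of these 23, 17 were higher in macrophages and 6 lower, beside 1082 higher and 320 lower among all tested genes. The median log2 fold change of the 112 was 0.41, beside 0.37 for all tested genes.

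The called gene was Ptafr, the receptor for platelet-activating factor, the lipid that Pla2g7 degrades. It was listed at 0 in microglia 1, 2 and 3, stood at 3.12 FPKM in microglia 4 and at 4.24, 13.8, 9.69 and 8.75 FPKM in macrophages 5 to 8. All macrophages were above all microglia, macrophage 5 by the least. Microglia 4 is the microglial library with Y-linked RNA as low as in macrophages. The difference was 2.73 ± 0.69 (SE; adjusted p = 0.0295, limma). It was lost without microglia 1 (2.56, adjusted p = 0.1) or 3 (2.56, 0.0847) and without macrophage 5 (3.02, 0.0512), 6 (2.52, 0.0961), 7 (2.68, 0.0525) or 8 (2.72, 0.0962), and including Y-linked expression gave 1.68 (adjusted p = 1). It was the 1 call of 12 tested genes in the list of phospholipases A2 and platelet-activating factor (median 0.21). Neutrophils and monocytes express this receptor too, and their markers had the ranges given above; their part was not tested.

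None of 16 tested LXR receptors and targets was called, and 3 had an unadjusted p below 0.05, with a list median of 0.00. Apoe, the apolipoprotein that accepts cholesterol from Abca1, was its most abundant gene, at 3903, 1915, 8365 and 4130 FPKM in microglia 1 to 4 and at 10764, 12306, 15033 and 6852 in macrophages 5 to 8. The difference of 1.43 ± 0.47 (SE) had an adjusted p of 0.123. It was called after equal-sum scaling, after quantile normalization and with array weights, and not in the other 17 fits. Nr1h3, the LXR alpha receptor of this list, was below the filter and not tested. It was listed at 0 in all microglia and stood at 6.24, 6.17, 0.209 and 11.6 FPKM in macrophages 5 to 8.

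Among 21 tested genes of sterol synthesis, 0 were called by limma and 6 had an unadjusted p below 0.05, with a median of 0.67. Ebp, a sterol isomerase and the most abundant of them, averaged 15.5 ± 2.98 FPKM in microglia against 32.5 ± 20 in macrophages (SD, n = 4 each; adjusted p = 0.477). Sqle, squalene epoxidase, singled out with its values in view, had the smallest adjusted p of the list, 0.0523, at no more than 0.396 FPKM in microglia and from 1.59 to 2.77 in macrophages. It was called in 2 of 19 alternatives, after equal-sum scaling and with array weights.

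In the list of lipid droplets and neutral lipid turnover, 0 of 13 tested genes were called, with 4 at an unadjusted p below 0.05 and the highest list median, 0.945. Plin3, a droplet coat protein related to Plin2, averaged 18.9 ± 1.95 FPKM in microglia against 33.6 ± 18.3 in macrophages (adjusted p = 0.598). Of 10 uptake receptors and lipases 0 were called and 2 had an unadjusted p below 0.05 (median 0.49), and the endosomal glycoprotein Cd68 averaged 1011 ± 177 and 668 ± 409 FPKM (adjusted p = 0.452). Of 14 genes of lysosomal cholesterol egress and transfer 0 were called, also with 2 at an unadjusted p below 0.05 (median 0.28). Npc2, which hands cholesterol to the lysosomal membrane, averaged 204 ± 44.8 and 157 ± 67.4 FPKM (adjusted p = 0.711). Ch25h, the cholesterol 25-hydroxylase whose product activates LXR, was at 91.0, 136, 70.4 and 135 FPKM in microglia and 23.5, 70.45, 21.7 and 4.64 in macrophages, and it missed the threshold (-2.27 ± 0.62 SE, adjusted p = 0.0527). It was called in 7 of 20 alternatives, among them all 4 scalings, with adjusted p from 0.000574 to 0.637, and was singled out after its values were seen.

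Of 15 genes of PPAR signalling and fatty acid oxidation 0 were called and 2 had an unadjusted p below 0.05 (median 0.37), with the thiolase Acaa2 at 25.0 ± 10.5 and 31.4 ± 11.1 FPKM (adjusted p = 0.808). Of 8 genes of fatty acid synthesis and desaturation 0 were called and 1 had an unadjusted p below 0.05 (median 0.09), with the elongase Elovl1 at 38.7 ± 20.7 and 38.9 ± 14.7 FPKM (adjusted p = 0.932). Of 14 further proteins that carry lipids or retinoids 3 were tested and 0 called, 1 of them at an unadjusted p below 0.05 (median -0.27). Dbi, the acyl-CoA binding protein, led these with 97.3 ± 65.1 FPKM in microglia against 81.0 ± 56.6 in macrophages (adjusted p = 0.861).

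**Figure D4:**
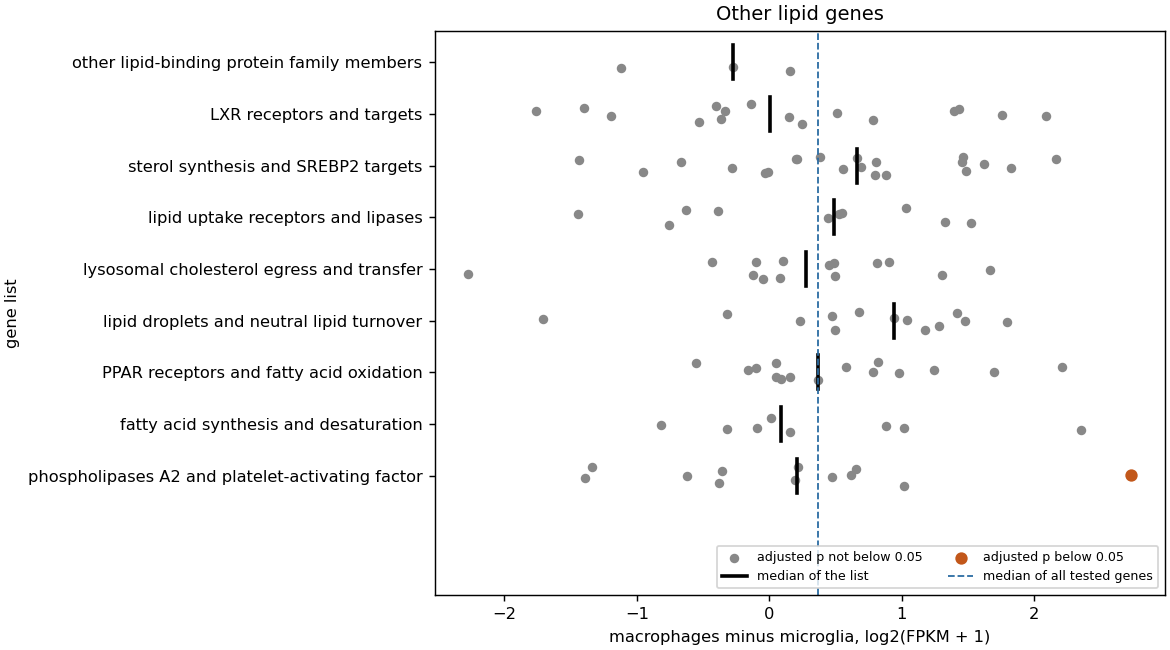
Difference between populations, macrophages minus microglia in log2(FPKM + 1), for 112 tested genes of 9 lipid lists, with 1 point per gene, a bar at each list's median and a dashed line at the median of all tested genes, 0.37. Ptafr, at 2.73, is the 1 gene with an adjusted p below 0.05.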

How the data were processed

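The authors deposited 1 table per library with an FPKM per gene, per the file headers; per the submitters' processing notes, bcl2fastq 1.8.4, Cufflinks 2.1.1 and the mm9 build were used. The aligner, strand setting and gene models were not given in the sources used here. The deposited tables hold 23021 rows; rows of 1 symbol were summed, and 9 symbols with a failed estimate in any library were left out. An FPKM of exactly 0 can be a failed estimate, so such genes are described as listed at 0.

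The 9352 genes that reached 1 FPKM in 4 or more of the 8 libraries were compared on log2(FPKM + 1), macrophages minus microglia, with limma 3.58.1 (R 4.3.3). The fit had an intensity trend and no covariate; tests were two-sided with Benjamini-Hochberg adjustment. An adjusted p below 0.05 is a call. A fold change on this scale understates the change of low genes. The step was tested on simulated data. FPKM is not a count, and no count test was run. Depth was estimated from single-transcript genes of at least 800 bases with an assumed fragment length of 150, is approximate and entered no test. Start positions in the files count from 0 and were raised by 1. Composition differs between libraries and FPKM does not remove it, so 4 scalings, 2 pseudocounts, 2 filters, 2 forms of limma, left-out libraries, a term for Y-linked expression and exact permutation tests were run as alternatives.

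The genes and lists were chosen with earlier results of these data known. Named are the 9 genes; in each list up to 3 called genes with the highest mean, or the most abundant tested gene where none was called; and the 2 genes nearest in profile to each called gene, leaving out clone names, predicted genes and small RNAs. Tables were made in Python 3.11.15 with scipy 1.17.1, numpy 2.4.6 and pandas 2.3.3. Some results for single genes of the lists are not reported here.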

Additional observations from a re-analysis of the deposited data

Results flagged for a closer look

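In 5 cases 1 library lay far from the other 3 of its population on the log2(FPKM + 1) scale, by a gap above Dixon's 95% critical value for 4 samples. For values without ties chance flags about 1 in 20 groups, and 48 groups were checked. Where 3 libraries are listed at 0, any other value in the remaining library is flagged. That rate therefore does not hold for Fabp4 and Ptafr. Abca1 in microglia 2 was at 0.489 FPKM against 21.5 to 23.95 in the other microglia, and Soat1 in the same library was at 0.471 against 17.8 to 30.7. Fabp4 in microglia 1 was at 1.52 FPKM and listed at 0 in the other microglia. In microglia 4, Ptafr was at 3.12 FPKM and listed at 0 in the other 3, and Bub1b was at 2.34 against 0.0696 to 0.216. Microglia 4 is the microglial library with Y-linked RNA as low as in macrophages.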

How the results depend on the processing

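Fabp3 was called under 19 of 20 alternatives with a limma fit, Pltp under 11 and Pla2g7 under 7, and none of the 3 changed sign; the other 5 tested genes were called under none. The 219 calls over all genes became 136 with a pseudocount of 0.1, 50 with no filter, 132 with a filter of 5 FPKM, 335 after equal-sum scaling, 1075 with array weights and 25 with Y-linked expression in the fit (119 to 258 with 1 library left out). The 3 calls among the 9 genes became 1 with a pseudocount of 0.1 or no filter and 0 with the Y-linked term (1 to 3 with 1 library left out). The 1 call among other lipid genes became 2 with a pseudocount of 5, 10, 5, 4 and 7 after equal-sum, upper-quartile, median-of-ratios and quantile scaling and 19 with array weights. It became 0 with a pseudocount of 0.1, either other filter, the Y-linked term or without microglia 2 and 3 (0 to 3 with 1 library left out). With a filter of 5 FPKM fewer genes were tested; for the other settings the cause was not tested.

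The sign of Abca1 turned to 0.13 with a pseudocount of 0.1 and 0.0175 after equal-sum scaling (-1.12 to 0.24 with 1 library left out). That of Plin2 turned to 0.0903 after equal-sum scaling, 0.16 after quantile normalization and 0.0797 without microglia 2 and 3 (-0.45 to 0.16). That of Dbi turned to 0.16 with array weights, 0.40 without microglia 2 and 3 and 0.0590 with the Y-linked term (-0.68 to 0.12). That of Elovl1 turned to -0.10 after median-of-ratios scaling, -0.0398 with array weights, and -0.53 both without microglia 2 and 3 and with the Y-linked term (-0.35 to 0.43). None of these was called in any of the fits. No paired analysis was possible because the labels number the libraries 1 to 4 and 5 to 8, with no number in common. Precision rests on 4 libraries a population, and at the estimated depths 1 fragment of Fabp4 is worth 0.0836 to 0.176 FPKM, so its levels below 1 FPKM rest on few fragments.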
